A study of Glycine max with 2 samples.

Results

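Of the 31461 regions called as bound by the YAB1-like protein in young soybean seeds, 750 (2.38%) were wider than 1000 bp. These wide regions were chosen by width alone, as the distance from start to end in the list of called regions, and the other 30711 regions, at most 1000 bp wide, serve as the comparison. Width is read from the same pileup of fragments as the signal and the summit (the base of highest pileup), so width, signal and summit offset are described here without a test. Position and spacing come from 1 library without a replicate and are also given as a description, with counting intervals.

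The experiment was chromatin immunoprecipitation followed by sequencing (ChIP-seq), made to locate the places where this factor binds during seed development. Both samples were whole seeds, 1.0 to 1.5 mm long, of soybean (Glycine max, cultivar Williams 82) from greenhouse plants. The seeds held embryos at the globular stage, before cotyledons form, and were fixed in 1% formaldehyde. The ChIP sample of replicate 1 used a rabbit polyclonal antibody against a peptide of GmYAB1-like, and the input sample of replicate 1 is total chromatin without antibody, from which no file was used here. A whole seed contains embryo, endosperm and seed coat, so a region can come from any of these tissues. A second replicate and any check of the antibody were not analysed here.

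YABBY proteins are plant transcription factors with a zinc finger and an HMG-like YABBY domain that binds DNA. In Arabidopsis, FILAMENTOUS FLOWER, also called YAB1, marks the lower side of leaves and floral organs, and the YABBY protein INNER NO OUTER is needed for growth of the outer integument, the layer of the ovule that becomes part of the seed coat. A factor bound at 1 place gives a narrow region in ChIP-seq, about as wide as the fragments that overlap that place, whereas several bound places side by side can run together into 1 wide call. No genome of the build of the coordinates was used here, so neither the sequence of these regions nor the genes beside them are given.

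The wide regions were a tail of the width distribution and had no separate peak of their own. Their median width was 1176 bp (quartiles 1068 and 1341 bp), against 369 bp (289 and 501 bp) in the other regions. Of the 750, 422 (56.3%) were at most 1200 bp wide, 638 (85.1%) at most 1500 bp, 112 were wider than 1500 bp, 29 wider than 2000 bp and 7 wider than 3000 bp. They held 0.959 Mb, or 6.95% of the 13.8 Mb covered by all called regions.

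The limit of 1000 bp cut through a continuous range. Just inside it, 3 regions were 1001 bp wide and the next 2 were 1002 bp wide. The first, 597278 to 598278 on chromosome 4, had 27 fragments at its summit, and the region at 24465891 to 24466892 on chromosome 10 had 19. Just outside it, 5 regions were exactly 1000 bp wide. Among these, the region at 46883245 to 46884244 on chromosome 4 had 54 fragments and the region at 1118004 to 1119003 on the same chromosome had 21. Summit pileups were thus 19 to 28 fragments for the 5 just inside and 21 to 54 for the 5 just outside, ranges that overlap.

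At the fragment length assumed here, the wide regions were longer than fragments around 1 base can reach. The fragment length was taken as 246 bp, the smallest width in the list, since the caller's settings were not given. The sample labels give fragments of 100 to 500 bp, so single fragments can be longer than this. At that length, all fragments over 1 base together span at most 491 bp. In each of the 750 regions the far edge lay at least 509 bp from the summit, beyond any 246 bp fragment at the summit. A width over 1000 bp makes this so in advance. In 566 regions (75.5%, Wilson 95% interval 72.3% to 78.4%) both edges lay at least 246 bp away, against 2042 of the other regions (6.65%, 6.38% to 6.93%). The median wide region had 689 bp out of reach of the summit's fragments (quartiles 585 and 861 bp). In all, 62.4% of the bases of the wide regions lay there, against 13.6% of those of the others. At a length of 246 bp, most of a wide region was therefore covered by fragments other than those over its summit. The reach of the real fragments was not measured. The limit on width fixed in advance that most of each region lay out of reach, by at least 510 bp. The share with both edges at least 246 bp away was not fixed, but the limit raises it.

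Summits were spread along the wide regions. The summit lay in the outer 25% of the width at one end or the other in 245 of 750 wide regions (32.7%, 29.4% to 36.1%) and in 4144 of 30711 others (13.5%, 13.1% to 13.9%). The limit of 1000 bp made no step in this share, which was 29.7% (27.1% to 32.4%) at 801 to 1000 bp and 29.6% (25.5% to 34.1%) at 1001 to 1200 bp. The median distance from summit to nearer edge was 367 bp (95% order-statistic interval 351 to 382 bp) and to the farther edge 822 bp (807 to 845 bp). In the others these distances were 144 bp and 222 bp. Neither direction was preferred, with 384 of the 750 summits (51.2%, 47.6% to 54.8%) nearer the left edge.

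Regions of 401 to 600 bp had more central summits. The central 20% of the width held the summit of 27.6% plus 26.8% of those 8723 regions, counted in bins of 10% on either side of the middle. In the wide regions the same bins held 11.6% and 11.1%, less than the bins from 30% to 40% (14.8%) and from 70% to 80% (14.8%) of the width. Off-centre summits were not limited to weak regions. At 30 to 49 fragments, the summit was in the outer 25% in 91 of 268 wide regions (34.0%, 28.5% to 39.8%) and in 3.67% (3.11% to 4.34%) of the others. At 50 to 99 fragments the shares were 16.5% (10.7% to 24.6%) of 109 wide regions and 1.46% (0.708% to 2.98%) of the others. Median widths were 1200.5 bp and 536 bp at 30 to 49 fragments, and 1229 bp and 682.5 bp at 50 to 99. The outer 25% is therefore a shorter stretch in the others, and the part of this in the shares was not tested.

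**Figure D1:**
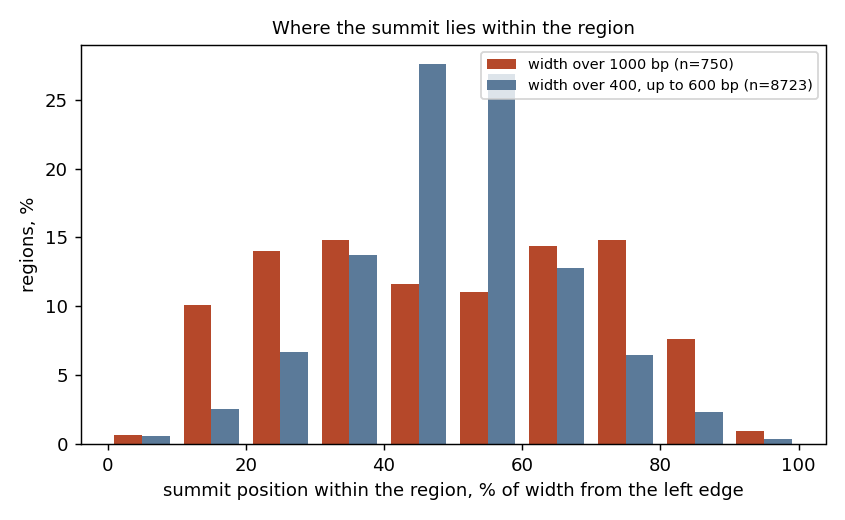
Position of the summit within the region, as a percentage of the width from the left edge, in bins of 10%, for the 750 wide regions and the 8723 regions of 401 to 600 bp; bars are shares of each class. Summits of the narrower class gather in the middle, with 27.6% and 26.8% in the central bins, whereas those of the wide class spread, with 11.6% and 11.1% there.

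Named regions show the range of shapes. The most central summit was at 2794803 to 2795817 on chromosome 18, with 505 bp to its left and 509 bp to its right and 18 fragments at the summit. The region at 12565206 to 12566557 on chromosome 17 was as even, with 671 bp and 680 bp, and held 38 fragments. Both of these are symmetric regions, one weak and one above the median pileup of the class. At the other extreme, the region at 17496695 to 17497907 on chromosome 14 had its summit 1191 bp from the left edge and 21 bp from the right edge, with 18 fragments. The region at 672475 to 673723 on chromosome 20 had 1177 bp and 71 bp, with 21 fragments. The 5 most one-sided summits held 18 to 21 fragments each, below the wide class median of 30, so their position rests on few fragments.

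Wide regions were also higher than the others, as the choice by width can give. Their median pileup at the summit was 30 fragments (quartiles 24 and 42.75), with a Poisson 95% interval of 20.2 to 42.8 for a single region of that pileup. The other regions had a median of 20 fragments (quartiles 17 and 24). The ratio of pileup to expected pileup had a median of 8.31 (quartiles 6.75 and 11.1) in the wide regions and 5.52 (4.72 and 6.74) in the others. The authors' deposited fold was at least 10 in 136 wide regions (18.1%), against a background of 2.48% of all regions. The deposited −log10 q-value was at least 10 in 547 (72.9%), against a background of 26.0%. Since signal and width come from the same pileup, nothing is read from these shares.

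Many wide regions were nonetheless not strong. There were 323 wide regions with 20 to 29 fragments and 41 with under 20. The lowest had 16 fragments (95% interval 9.15 to 25.98), at 6516977 to 6518286 on chromosome 8 and at 35546977 to 35548060 on chromosome 20. These 2 were named after their values were seen. Conversely, a high pileup did not always come with a wide region. The share of regions that were wide was 0.277% at 12 to 19 fragments, 2.65% at 20 to 29, 6.94% at 30 to 49, 18.5% (15.6% to 21.8%) at 50 to 99, and 9 of 15 (60.0%, 35.7% to 80.2%) at 100 or more. Of the 100 regions of highest ratio, 24 were wide.

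**Figure D2:**
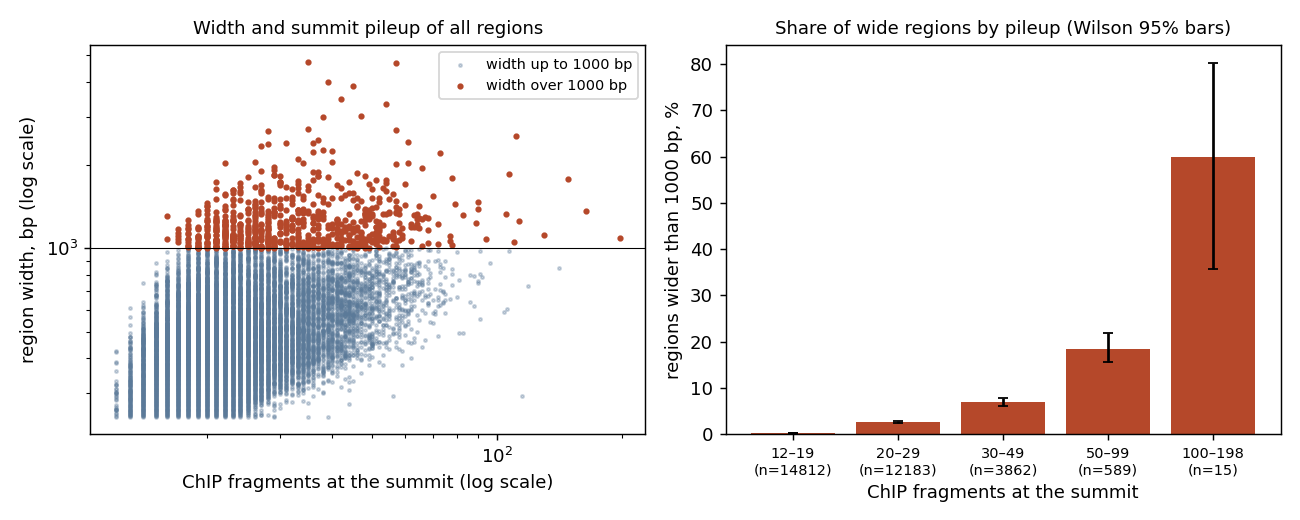
Left, width in bp against ChIP fragments at the summit for all 31461 regions, both on log scales, with wide regions in red and a line at 1000 bp. Right, share of regions wider than 1000 bp in bands of pileup with Wilson 95% bars, rising from 0.277% at 12 to 19 fragments to 60.0% of 15 regions at 100 or more.

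The 10 widest regions and the 10 wide regions of highest ratio were different regions. The 10 widest held 35 to 57 fragments at their summits, and 0 of them were among the 100 regions of highest ratio. Only 24 of the 750 wide regions were among those 100, so 0 of 10 is near the share of the class. The 10 of highest ratio were 1054 to 1475 bp wide, in the range up to 1500 bp that held 85.1% of wide regions. The median ratio rose with width, from 7.74 at 1001 to 1200 bp to 10.4 above 2000 bp. This rise was not particular to the wide class. Among the others it went from 4.87 at 246 to 300 bp to 7.53 at 801 to 1000 bp, close to the narrowest wide band. Within the 750, width and ratio had a Spearman correlation of 0.21, and width and expected pileup one of 0.00, both across regions of 1 library that share the pileup and the depth.

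The widest region covered 6623613 to 6628330 on chromosome 14, 4718 bp. Its summit held 35 fragments, a ratio of 9.23 (95% interval 6.43 to 12.8, counting error of the ChIP pileup only), and lay 1381 bp from its left and 3336 bp from its right edge. The next, 5112857 to 5117536 on chromosome 11, spanned 4680 bp and had 57 fragments, with 1816 bp and 2863 bp on either side of the summit. Both therefore had long stretches of enrichment on both sides.

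The region at 47440565 to 47444562 on chromosome 2 spanned 3998 bp, had a ratio of 8.10 (5.76 to 11.1), and was one-sided, with 717 bp to the left of the summit and 3280 bp to the right. The region at 1170451 to 1174312 on chromosome 14, 3862 bp wide, had 1042 bp and 2819 bp. The region at 51245539 to 51248531 on chromosome 1, 2993 bp wide, leaned the other way, with 2386 bp and 606 bp. Of the 10 widest, 3 had the summit in the outer 25%.

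The 10 widest mostly had company: 8 of them had another called region within 1 kb of an edge. That share was 37.3% over all wide regions and 62.1% of the 29 above 2000 bp, which include these 10. Among the 10, the region at 11306364 to 11309686 on chromosome 5 was an exception. It spanned 3323 bp, held 54 fragments with a ratio of 14.2 (10.7 to 18.6), and its nearest called neighbours were 308220 bp to the left and 235922 bp to the right. A broad region thus also occurred with no other called region nearby.

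Among the 10 wide regions of highest ratio, 1 had its summit in the outer 25%. The highest, at 57421417 to 57422508 on chromosome 18, held 198 fragments and had 359 bp to the left of the summit and 732 bp to the right. The region at 47622420 to 47623790 on chromosome 8 held 164 fragments, with 630 bp and 740 bp on its sides. The region at 3215360 to 3216480 on the same chromosome held 130 fragments, with 372 bp and 748 bp. Edges lay beyond the 246 bp fragment length on both sides in all 3. Further down, the ratio was 27.1 (21.8 to 33.4) for 23039901 to 23041293 on chromosome 13 and 26.8 (21.6 to 33.02) for 16793530 to 16794765 on chromosome 6. Their intervals overlap almost wholly, so their order was not resolved.

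The control level at the wide regions was close to that at the others. The expected pileup had a median of 3.43 fragments in both classes. It equalled the genome-wide average of 3.08 fragments, meaning that no control window exceeded that average, in 158 wide regions (21.1%, 18.3% to 24.1%) and in 17.9% (17.5% to 18.3%) of the others. It was at least 2 times that average in 22 wide regions (2.93%, 1.94% to 4.40%) and in 470 of the others (1.53%, 1.40% to 1.67%).

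Of the 5 wide regions of highest control level, 4 lay in a pair of stretches. On chromosome 19 the region at 43727362 to 43729150 had 148 fragments where 13.98 were expected, a ratio of 10.6 (8.95 to 12.4), and the region at 43722540 to 43723985 had 79 where 9.38 were expected. On chromosome 13 the region at 38849001 to 38851554, 2554 bp wide, had 111 fragments where 13.3 were expected, and the region at 38813598 to 38814662 had 62 where 12.2 were expected. The fifth lay apart, at 12518964 to 12520006 on chromosome 2, with 45 fragments where 9.15 were expected, a ratio of 4.92 (3.59 to 6.58). At these 5 the control was raised along with the ChIP, and the part of this in their width was not tested.

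Along the chromosomes, wide regions followed the other regions. The middle 33.3% of each chromosome, measured up to its last called region, held 82 of the 745 wide regions on chromosomes (11.01%, 8.96% to 13.5%) and 12.4% (12.04% to 12.8%) of the 30513 others. The first 33.3% held 45.8% and the last 43.2% of the wide regions, against 43.8% and 43.8% of the others. The outermost 10% at either end held 35.6% (32.2% to 39.1%) and 37.4% (36.9% to 38.0%). These intervals treat regions as independent, although they are grouped along the chromosomes, and are too narrow as a spread between places. The wide share in the middle was lower than that of the others on 10 of the 20 chromosomes and higher on the remainder.

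**Figure D3:**
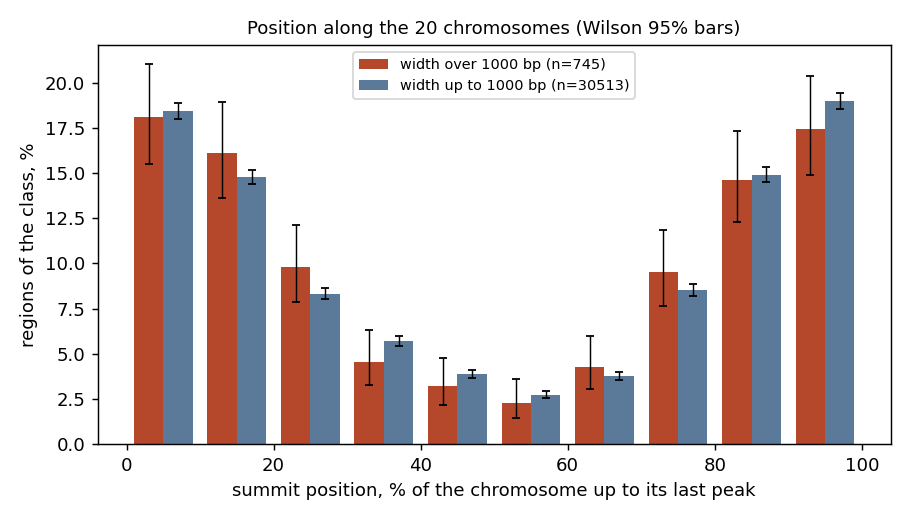
Position of summits along the 20 chromosomes, as a percentage of the length up to the last called region, for 745 wide regions and 30513 others; bars are shares of each class with Wilson 95% intervals. Both classes are high at the ends, with 18.1% and 18.4% in the first bin, and low in the middle, with 2.28% and 2.74% in the bin from 50% to 60%.

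The chromosomes held 20 (chromosome 16) to 56 (chromosome 13) wide regions, or 0.799 ± 0.223 per Mb (SD, 20 chromosomes). Chromosome 11 had the highest density, at 1.47 per Mb, and chromosome 16 the lowest, at 0.528 per Mb. The share of a chromosome's regions that were wide ran from 1.83% (1.19% to 2.80%) on chromosome 16 to 3.26% (2.42% to 4.37%) on chromosome 14. The intervals of these extremes overlap. Chromosome 13 has called regions dense in the middle as well. There, 26 of the 56 wide regions (46.4%) lay in the middle stretch, against 41.4% of the other regions. Of its 2300 regions, 2.43% were wide, close to the 2.38% of the whole list. Chromosome 18 had 0 of 33 in its middle stretch, which held 9.02% of its other regions.

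In windows of 1 Mb, wide regions were spread much like the others. Of 956 windows of 1 Mb, 407 held at least 1 wide region, 216 held exactly 1 and 34 held 4 or more. The densest 25% of windows, those with at least 57 called regions, held 1.89 wide regions each and the remaining windows 0.406 each. As a share of each class, 60.9% (57.4% to 64.4%) of wide regions and 57.3% (56.7% to 57.8%) of the others lay in the dense windows, with intervals that overlap. The window with most was 35000001 to 36000000 on chromosome 20, where 9 of 85 regions were wide. It was followed by 49000001 to 50000000 on chromosome 10, with 7 of 123, and 1000001 to 2000000 on chromosome 14, with 7 of 69. The longest run of windows with 0 wide regions was 15000001 to 40000000 on chromosome 18, 25 windows with 190 called regions in all.

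Over the whole list, wide regions had another called region close to their edges more often than the others did. The gap from edge to edge was used, since the width itself keeps the summits of wide regions apart. The smallest gap in the list was 52 bp. The median gap to the nearer neighbour was 1832 bp (95% order-statistic interval 1583 to 2096 bp) for wide regions and 2733 bp (2671 to 2812 bp) for the others. A neighbour within 1 kb was found for 278 of 745 wide regions (37.3%, 33.9% to 40.8%) and for 30.4% (29.9% to 30.9%) of the others, and neighbours within 1 kb on both sides for 48 (6.44%, 4.89% to 8.44%) against 3.39% (3.19% to 3.59%). By distance between summits the direction did not hold: 37.3% of wide regions and 38.8% of the others had another summit within 2 kb. With only regions of −log10 q at least 10 kept, the shares within 1 kb of an edge were 13.2% (10.6% to 16.3%) and 11.5%. That interval covers the share of the others.

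The share was higher in the wider bands of the wide class. A neighbour within 1 kb was found for 33.7% (29.4% to 38.4%) of 418 regions of 1001 to 1200 bp, 37.7% (31.5% to 44.3%) of 215 of 1201 to 1500 bp, 45.8% (35.5% to 56.5%) of 83 of 1501 to 2000 bp, and 18 of 29 (62.1%, 44.0% to 77.3%) above 2000 bp. The narrowest wide band was no higher than the regions of 801 to 1000 bp, at 35.5% (32.8% to 38.3%). The share in dense windows went from 57.9% (53.1% to 62.5%) at 1001 to 1200 bp to 72.4% (54.3% to 85.3%) above 2000 bp, and these intervals overlap. Both top values rest on few regions.

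**Figure D4:**
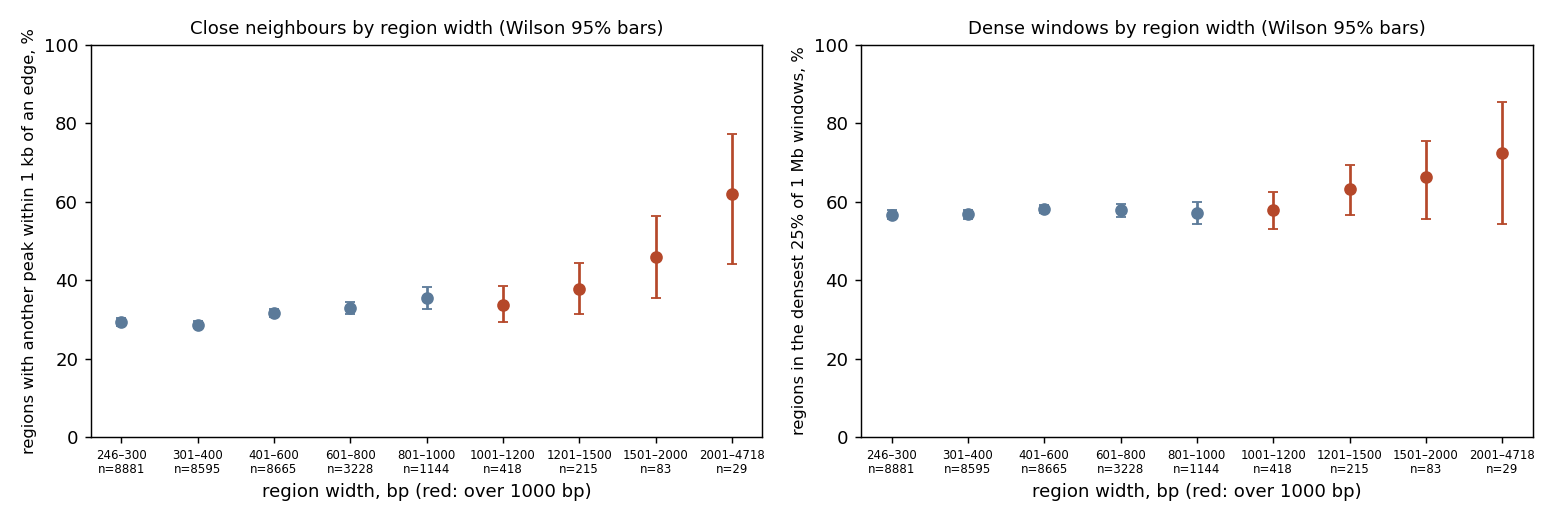
Left, share of regions with another called region within 1 kb of an edge, and right, share in the densest 25% of 1 Mb windows, by band of width in bp, on chromosomes; points are shares with Wilson 95% bars, red above 1000 bp. The left share is 29.4% in the narrowest band and 62.1% of 29 regions in the widest, and the right share goes from 56.7% to 72.4%.

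The difference in close neighbours was not the same at every signal level. At 20 to 29 fragments, 36.4% (31.4% to 41.8%) of 321 wide regions and 29.2% of the others had a neighbour within 1 kb. At 30 to 49 fragments the shares were 40.3% (34.6% to 46.3%) and 31.3% (29.8% to 32.8%). At 50 to 99 fragments they were 35.5% (27.1% to 44.9%) and 41.3% (37.0% to 45.8%), and under 20 fragments 10 of 40 (14.2% to 40.2%) and 30.8% (30.1% to 31.6%). In the latter 2 bands the wide share was the lower one, within overlapping intervals. The narrow neighbours themselves were ordinary: the 301 within 1 kb of a wide region had a median of 20 fragments and a median width of 392 bp, and the 9046 within 1 kb of another narrow region had 20 fragments and 379 bp.

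Some wide regions lay beside each other. A wide neighbour within 1 kb was found for 22 of the 745 (2.95%, 1.96% to 4.43%), against 301 of the 30513 others (0.986%, 0.882% to 1.10%). Among regions with any neighbour within 1 kb, these were 7.91% (5.28% to 11.7%) of 278 wide regions and 3.24% (2.90% to 3.62%) of 9277 others. The 22 come from few places, since neighbours count each other. With edges at most 2 kb apart, and narrower regions allowed in between, 12 pairs and 2 groups of 3 were found, 30 wide regions in all. One group of 3 ran from 6957126 to 6963264 on chromosome 6, 6139 bp, of which 5358 bp were inside wide regions 1562, 2470 and 1326 bp wide. All 3 summits held 37 fragments, with ratios of 8.93, 8.54 and 7.68. The other ran from 6622281 to 6632444 on chromosome 14, 10164 bp, and included the widest region of the list, with 28, 35 and 28 fragments at the 3 summits. In both groups, therefore, no single summit stood out. Gaps of 100 bp on chromosome 6 and 60 bp on chromosome 14 separated the first 2 regions of each group. The minimum of the list was 52 bp, and 618 neighbouring regions in it lay 52 to 100 bp apart.

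Other neighbouring pairs were less even. On chromosome 4 the region at 49927333 to 49928750 held 57 fragments, and the one at 49929750 to 49930942, 999 bp further on, held 24. On chromosome 20 the region at 39002338 to 39003353 held 19 fragments and the one at 39004238 to 39005488 held 45. Taking summits at most 2 kb apart as a chain, 119 of the 745 wide regions (16.0%) belonged to the 4478 regions in chains of 3 or more, of which 2.66% (2.23% to 3.17%) were wide. Among the 19156 single summits, 2.44% (2.23% to 2.67%) were wide.

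At the other end, 65 wide regions (8.72%, 6.90% to 10.97%) had no called region within 20 kb of either edge, against 11.8% (11.4% to 12.1%) of the others. The 3 most isolated were named after their values were seen. The region at 13964003 to 13965169 on chromosome 16 had 21 fragments, and its nearest neighbours were 913528 and 731817 bp away. The region at 22791548 to 22792607 on chromosome 19 had 29 fragments and neighbours at 889613 and 395573 bp, and the one at 30470742 to 30471832 on chromosome 7 had 22 fragments and neighbours at 250108 and 235936 bp. Their widths were 1167, 1060 and 1091 bp, and 56.3% of all wide regions were at most 1200 bp wide. The 3323 bp region on chromosome 5 described above, with its nearer neighbour at 235922 bp, was almost as isolated as the third.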

How the data were processed

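One peak list in narrowPeak format was used, of the ChIP library of replicate 1. The submitters' processing notes name MACS2, SAMtools 0.1.18 and Bowtie 0.12.7. Settings, duplicate handling, control library and build were all not given in the sources used here. The deposited ratio (fold) per region, −log10 p and q values and score are the authors', as the caller wrote them; the score was not used. The lowest deposited −log10 q was 2.03.

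Whole pileups were recovered from deposited fold, (pileup + 1)/(expected + 1), and the upper Poisson tail, matching −log10 p within 0.0001 for 100% of regions, with every other whole number off by 0.000963 or more. Of 2000 regions simulated with these same formulas, 100% were returned, which checks the computation and not how the deposited values were made. Expected pileups were the floor of 3.08 or multiples of 0.481 (fragment window), 0.118 (1 kb) or 0.0118 (10 kb), within 0.0004. The control held 2.08 reads per ChIP read, and the floor equals 12.5 ChIP reads and 26.0 control reads per kb. Total depth is unknown, since the genome size set for calling is not.

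Ratios are pileup over expected, with exact Poisson (Garwood) intervals; shares have Wilson intervals. PCR fragments are not independent molecules, so intervals cover counting error only, not selection. No test was run. Coordinates are 1-based. Regions were named by a fixed rule: the 10 widest, the 10 of highest ratio, the 5 nearest each side of the limit, the 5 of highest expected pileup, the 5 most central and most terminal summits, the longest chain, and extreme chromosomes and windows; others are marked, and the neighbouring pairs were also chosen after their values were seen. The width limit and measures were chosen with earlier results of these data known. Python 3.11.15, numpy 2.4.6, pandas 2.3.3, scipy 1.17.1 and matplotlib 3.10.9 were used.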

Additional observations from a re-analysis of the deposited data

Results flagged for a closer look

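Wide regions on unplaced scaffolds stood outside the comparisons along chromosomes, while lying above their control as all called regions do. There were 5, on 3 scaffolds, or 2.46% of the 203 called regions on scaffolds. The strongest, at 53667 to 54854 on scaffold 28, had 65 fragments, 17.7 times the expected pileup (95% interval 13.7 to 22.6). The region at 3561868 to 3562930 on scaffold 21 had 53, or 17.2 times (12.9 to 22.5). The remaining 3 had 17 to 21 fragments, and one of them, at 3503106 to 3504401 on scaffold 21, had its summit 91 bp from the right edge.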

How the results depend on the processing

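The number of wide regions, 750, was 1905 with a limit of 800 bp, 112 with 1500 bp and 1591 after merging regions within 300 bp of each other; 745 remained with −log10 q at 5 or more and 547 with 10 or more. With limits of 800 and 1500 bp, the median distance from summit to nearer edge was 315 and 518.5 bp, and the median ratio 7.80 and 9.41. With 1500 bp, 8.93% lay in the middle stretches, 67.9% in the densest windows, and 50% had a neighbour within 1 kb. That last share, 37.3% as reported, was 24.2%, 52.5% and 71.3% for gaps of at most 500 bp, 2 kb and 5 kb, 13.2% with −log10 q at 10 or more (11.5% in the others), and 27.3% after merging (21.0%). By summit distance it was 10.9% within 1 kb (19.9% in the others), opposite in direction, as at 2 kb; width itself keeps summits apart. Off-centre summits were 19.3% for the outer 20%, 59.6% for the outer 33.3% and 49.1% after merging. The median ratio was 9.42 with −log10 q at 10 or more, and 6.64 as the deposited fold.

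Of 36 alternatives, 3 were chosen after seeing the data (merging, for neighbours and for summits, and summit distance within 2 kb). By value, 15 of the 36 stayed within the interval of the reported value, or near it for the number of regions, and 21 moved. Of the 31 that set wide regions beside the others, 29 kept the direction. This count of directions is not independent support. The alternatives on summit offset and ratio share the pileup that sets the width, and others use nested limits on the same regions. The 2 on gene starts and sequence were not run, because no genome of the build was used. No paired analysis was possible because only the ChIP library of replicate 1 has a file here. Depth limits single regions: 30 fragments have an interval of 20.2 to 42.8.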
